A study of Mus musculus with 23 samples.

Results

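Csf1r, Cx3cr1, Adgre1, Mrc1, F13a1, Cd163, Lyve1, Cd68, Lyz2 and Tyrobp are genes that mark the macrophages of the mouse testis, and their read counts were followed in the testis during the first spermatogenic wave and in organotypic culture of testis explants. They were 10 of the 27466 genes in the count table, and all 10 were among the 19255 genes that passed the filter on low counts. The members were chosen on measured values of these same libraries, for lower levels at D4 of culture and their return by D16. The contrasts of D4 with 6.5 and 10.5 days postpartum (dpp) and of D16 with D4 are therefore given for them as a description, with no test. The same holds for every other contrast of the members that draws on the 6.5 dpp, 10.5 dpp, D4 or D16 libraries by stage. Tests are given for 36.5 dpp against 22.5 dpp and for D30 against 36.5 dpp, and for freezing within stages.

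All tissue came from testes of wild-type CD-1 mice, an outbred strain, and was labelled as holding germ and somatic cells. In vivo testes were taken at 6.5 dpp, 10.5 dpp, 22.5 dpp or 36.5 dpp, and explants of the 6.5 dpp testis were grown on agarose at a gas-liquid interphase, in serum-replacement medium with retinol, for 4 (D4), 16 (D16) or 30 (D30) days. Some tissue had been through controlled slow freezing (CSF), and the rest was fresh. The analysed libraries were 1 fresh and 3 CSF libraries at 6.5 dpp, 3 fresh libraries each at 10.5 and 22.5 dpp and at D4, 2 each at 36.5 dpp and D16, and 3 fresh and 1 CSF library at D30. Fresh and CSF libraries of a stage were placed together. The age-matched pairs were D4 with 10.5 dpp, D16 with 22.5 dpp and D30 with 36.5 dpp. Culture libraries were made from pooled explants after the central necrotic area had been cut away, so they describe the living rim of the tissue.

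Testicular macrophages live in the interstitium between the tubules, close to Leydig cells, and around the tubule wall. They depend on colony-stimulating factor 1 acting through its receptor Csf1r, take up dying cells and debris by scavenging and lectin receptors, and break them down in lysosomes. Fetal-derived and monocyte-derived cells both contribute to the population, and it is known for restraining immune responses against germ cells.

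Promoters of the members were compared because PU.1 (Spi1), the ETS-family factor that drives macrophage differentiation, binds purine-rich sites with the core GAGGAA. RefSeq start sites (GRCm38.p6) of 6 of the members were used, and the 250 bases before each start were searched on both strands. GAGGAA was present before Mrc1, Cd68 and F13a1, that is 3 of the 6 genes, and in 23.3% of 32851 promoter windows of the same length. The 3 windows are shown because these genes had unlike levels in culture. Sequences are written 5′ to 3′ on the strand of the gene, with GAGGAA, or its reverse complement TTCCTC, in capitals.
Mrc1, chr2:14229164-14229413, plus strand: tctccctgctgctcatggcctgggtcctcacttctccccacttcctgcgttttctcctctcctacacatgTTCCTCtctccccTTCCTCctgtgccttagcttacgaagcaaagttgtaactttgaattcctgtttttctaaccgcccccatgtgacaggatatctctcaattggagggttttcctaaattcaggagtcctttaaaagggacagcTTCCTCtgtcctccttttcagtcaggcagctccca
Cd68, chr11:69666171-69666420, minus strand: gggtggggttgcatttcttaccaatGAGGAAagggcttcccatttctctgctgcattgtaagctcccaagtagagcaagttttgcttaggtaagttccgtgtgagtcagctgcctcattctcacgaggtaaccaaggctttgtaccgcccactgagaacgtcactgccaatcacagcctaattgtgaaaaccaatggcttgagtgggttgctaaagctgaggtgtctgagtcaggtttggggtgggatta
F13a1, chr13:37050245-37050494, minus strand: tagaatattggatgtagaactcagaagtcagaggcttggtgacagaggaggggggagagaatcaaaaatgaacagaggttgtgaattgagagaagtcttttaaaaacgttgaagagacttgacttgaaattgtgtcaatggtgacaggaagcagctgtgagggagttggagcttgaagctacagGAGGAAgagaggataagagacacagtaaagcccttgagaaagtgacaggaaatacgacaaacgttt
The Mrc1 window held 3 matches, and those of Cd68 and F13a1 held 1 each. A second F13a1 start (chr13:37049214-37049463, minus strand) had no match, nor had the windows of Cd163, Cx3cr1 and Lyz2. The longer PU.1 form GAGGAAGT (2.44% of all windows), the composite ETS-IRF element (2.3%) and the MAF core TGCTGAC (3.81%) were in none of the 6, and the C/EBP form TTGCNNAA (9.56%) was before Cd68 alone. GAGGAAGT contains GAGGAA. Windows on the chromosome of Csf1r were left out of the search of the members, so none is given for it. No window was found for Adgre1, Lyve1 and Tyrobp.

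Library totals ran from 28351546 to 69029328 counts over the 21 analysed libraries. Of 23 columns, 6.5 dpp fresh replicate 3 repeated replicate 2 and was counted once with it, and 6.5 dpp fresh replicate 1 was left out because its ranked counts were closest to a D16 library (Spearman's rho 0.986) and only 0.876 to 0.909 with the other 6.5 dpp libraries. Replicates of a stage also differed in the balance of short and long transcripts. The median deviation of genes under 1500 exon bases minus that of genes over 5000, each from the other libraries of the stage, ran from -0.875 to 0.909 on the log2 scale. It was 0.875 and -0.875 in the D16 libraries and 0.765 and -0.765 at 36.5 dpp, where pairs mirror each other by construction, and 0.909 in the third 6.5 dpp CSF library. The study's methods call replicates biological, each cultured one being a pool of explants, but the sources used here do not say whether different animals gave the replicates of a stage, so p-values measure the spread between these samples. Defining genes of the other testis cells were detected, some of them at other levels in culture than in vivo. The germ cell gene Ddx4 had mean counts per 1000000 (CPM) of 268 at 10.5 dpp and 185 at D4, the meiotic gene Sycp3 56.1 and 85.2, and the Sertoli cell gene Sox9 186 and 201. The spermatid genes Acrv1 and Prm1 reached 174 and 4152 CPM at 36.5 dpp, against 25.7 and 200.3 at D30. The Leydig cell genes Cyp11a1 and Hsd3b1 had 287 and 197 CPM at 22.5 dpp against 54.1 and 110.3 at D16, and the peritubular and stromal genes Acta2 and Dcn 215 and 212 against 177 and 766.

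All 10 macrophage genes were detected in every library. In whole tissue a lower level can come from fewer macrophages or from less RNA per macrophage, and these cannot be told apart. Levels of different genes are compared per kilobase of exon only. On that scale, at 22.5 dpp, Lyz2 was the most abundant (mean 84.6 CPM per kilobase), followed by Tyrobp (14.5), Mrc1 (13.2), Cd68 (10.7), F13a1 (9.84), Csf1r (6.75), Adgre1 (4.45) and Cx3cr1 (3.68), with Lyve1 (0.46) and Cd163 (0.352) far lower. At D16 Lyz2 stood at 243.6 and Tyrobp at 27.7 CPM per kilobase and F13a1, at 0.425, stood below Lyve1 (0.690). All further levels are CPM on the library total, and all fold changes are fitted values on the log2 scale from edgeR with trimmed-mean scaling. A gene was called when its adjusted p was under 0.05 and it changed at least 2-fold.

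Csf1r, the receptor for Csf1 and Il34 that keeps macrophages alive, had 20.5, 12.5, 12.8 and 9.59 CPM in the 4 libraries at 6.5 dpp, the fresh library first. It had 24.6, 30.9 and 23.9 CPM at 10.5 dpp, 34, 45.9 and 37.1 at 22.5 dpp and 12.5 and 16.4 at 36.5 dpp. The values at 10.5 dpp all lay above those at 6.5 dpp, and both 36.5 dpp libraries lay below every 22.5 dpp library. In culture it had 3.53, 4.46 and 4.09 CPM at D4, 23.7 and 32.8 at D16 and 29.4, 28.1, 57.3 and 37.6 at D30, the CSF library last. The mean was 4.02 ± 0.468 (SD, n = 3) at D4 against 26.5 ± 3.85 (SD, n = 3) at 10.5 dpp, 6.58-fold lower, and 7.03-fold higher at D16 than at D4. Every D4 library was below every other library of the series, the D16 range overlapped that of 10.5 dpp and lay below every 22.5 dpp library, and D30 replicate 3, at 57.3 CPM, was above every other library.

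Cx3cr1 (chr9:120048683-120068296, minus strand, GRCm38), the receptor for the membrane-bound chemokine Cx3cl1, had 10.4, 7.8, 11 and 8.36 CPM at 6.5 dpp, 11.7, 12.5 and 13.1 at 10.5 dpp, 13.4, 22.7 and 13.6 at 22.5 dpp and 5.02 and 4.45 at 36.5 dpp. At D4 it had 0.882, 0.671 and 0.84 CPM, then 12.2 and 13.9 at D16 and 13.3, 11.7, 15.3 and 17.8 at D30. D4 was 15.6-fold below 10.5 dpp and D16 was 16.4-fold above D4, the largest return among the members. The D16 and 10.5 dpp ranges overlapped, and so did those of D16, D30 and 22.5 dpp.

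Adgre1 (chr17:57358581-57483529), which encodes the surface glycoprotein F4/80, had 9.12, 4.14, 4.89 and 5.82 CPM at 6.5 dpp, 10.1, 14.4 and 10.1 at 10.5 dpp, 13.5, 17.7 and 12 at 22.5 dpp and 4.51 and 4.99 at 36.5 dpp. Culture values were 1.63, 2.21 and 1.96 at D4, 15.3 and 15.1 at D16 and 18.1, 18.2, 22.9 and 22.6 at D30. D4 was 5.98-fold below 10.5 dpp, and D16 was 7.87-fold above D4 and inside the range of 22.5 dpp. All 4 D30 libraries were above every in vivo library.

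Mrc1 (chr2:14229414-14332023), which encodes the mannose receptor CD206 that resident macrophages use to take up glycoproteins, had 41.3, 27.3, 31.3 and 33.2 CPM at 6.5 dpp, 51.2, 63.9 and 51.2 at 10.5 dpp, 73.5, 109.7 and 69.1 at 22.5 dpp and 26.1 and 33.4 at 36.5 dpp. In culture it had 18.5, 18 and 16.1 CPM at D4, 31.7 and 47.8 at D16 and 77, 67.2, 85.7 and 58.9 at D30. D4 was 3.16-fold below 10.5 dpp and D16 2.27-fold above D4, so both the drop and the return were smaller than those of Csf1r, Cx3cr1 and Adgre1. The D16 values overlapped those at 6.5 dpp and lay below every 10.5 and 22.5 dpp library.

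F13a1 (chr13:36867178-37050244, minus strand), the transglutaminase subunit of factor XIII that resident macrophages and platelets make, had the widest range of the members. It had 18.7, 11, 9.71 and 14.2 CPM at 6.5 dpp, 34.4, 48.6 and 33.5 at 10.5 dpp, 61.2, 75.9 and 61.8 at 22.5 dpp and 16 and 18.4 at 36.5 dpp. At D4 it had 0.789, 0.887 and 0.826 CPM, at D16 1.81 and 3.91 and at D30 5.26, 8.72, 21.8 and 7.16. D4 lay 46.6-fold below 10.5 dpp, the largest drop among the members. D16 lay 3.43-fold above D4 but under every in vivo library, and only D30 replicate 3, at 21.8 CPM, exceeded both 36.5 dpp libraries.

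The hemoglobin scavenger receptor Cd163 (chr6:124304636-124330529) and the hyaluronan receptor Lyve1 (chr7:110850607-110862953), which perivascular macrophages share with lymphatic endothelium, were the lowest members per kilobase at 22.5 dpp. Cd163 ran from 0.282 to 2.17 CPM over the 21 libraries (8 to 94 counts) and Lyve1 from 0.301 to 3.65 CPM (12 to 167 counts). Their mean at D4 was 1.65-fold and 1.79-fold below that at 10.5 dpp, with no overlap of the libraries. The D16 libraries disagreed, at 0.402 and 2.05 CPM for Cd163 and 0.377 and 3.65 for Lyve1, and these are the libraries whose balance of short and long transcripts was 0.875 and -0.875. No return can be read from this pair.

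Cd68 (chr11:69664213-69666170, minus strand), a lysosomal glycoprotein of phagocytes, had 7.91, 6.93, 9.05 and 7.76 CPM at 6.5 dpp, 7.63, 9.46 and 7.8 at 10.5 dpp, 10.8, 17.4 and 12 at 22.5 dpp and 4.75 and 2.75 at 36.5 dpp. It had 4.16, 5.18 and 4.97 CPM at D4, 15.5 and 15.1 at D16 and 15.9, 17.8, 20.9 and 13.5 at D30. D4 was 1.74-fold below 10.5 dpp, a small drop for this set, and overlapped 36.5 dpp. D16 was 3.2-fold above D4.

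Lyz2 (chr10:117277541-117282272, minus strand), the lysozyme that myeloid cells secrete, had 41.6, 18.7, 47.5 and 76.4 CPM at 6.5 dpp, 38.4, 58.5 and 38.8 at 10.5 dpp, 98.6, 127 and 109 at 22.5 dpp and 89.2 and 41 at 36.5 dpp. At D4 it had 31.5, 53.4 and 44.1 CPM, inside the range at 6.5 dpp and overlapping that at 10.5 dpp, so it was the member with no drop at D4. At D16 it had 284 and 357 CPM and at D30 254, 403, 521 and 628. The mean at D16 was 7.46-fold that at D4, and every D16 and D30 library was above every in vivo library.

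Tyrobp (chr7:30413782-30417582) encodes DAP12, the adaptor through which Trem2 and related receptors activate the kinase Syk. It had 7.72, 4.06, 8.83 and 20 CPM at 6.5 dpp, 8.49, 9.82 and 8.47 at 10.5 dpp, 8.85, 11.3 and 8.88 at 22.5 dpp and 13.6 and 3.5 at 36.5 dpp. At D4 it had 1.65, 3.31 and 2.69 CPM, at D16 22.7 and 14.3 and at D30 13.7, 21.3, 22.8 and 40.4. D4 lay 3.5-fold below 10.5 dpp and D16 7.25-fold above D4. With 667 exon bases Tyrobp is the shortest member, and its highest values at 6.5 dpp, 36.5 dpp and D16 were in the libraries whose short-transcript balance was 0.909, 0.765 and 0.875. With this balance as a covariate, a fit added after seeing the data, the change of Tyrobp from 36.5 dpp to D30 went from 0.89 (adjusted p = 0.177) to 1.11 (adjusted p = 0.0244).

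**Figure D1:**
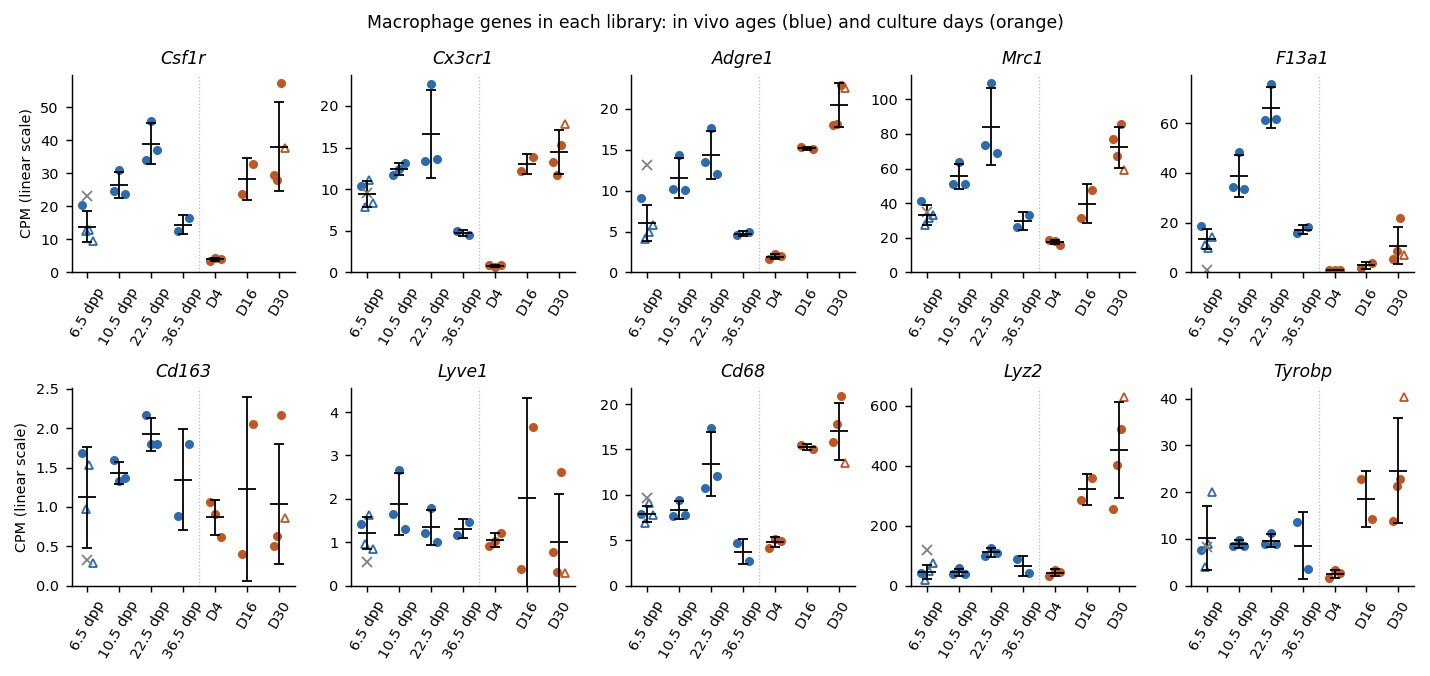
CPM of each of the 10 genes (y axis, linear, one panel per gene) in every library, by stage on the x axis. Blue points are in vivo and orange points cultured libraries, filled circles fresh and open triangles CSF tissue, the grey cross is the 6.5 dpp library left out, and black marks are the mean ± SD of the stage. Csf1r, Cx3cr1, Adgre1 and Mrc1 have their lowest values at D4, F13a1 is below every in vivo library at D4 and D16, and Lyz2 is highest at D16 and D30.

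Counted over the set, 9 of the 10 genes had every D4 library below every 10.5 dpp library, and Lyz2 overlapped. Against 6.5 dpp, D4 was lower without overlap for 7. At D16, 8 genes lay above D4 without overlap, the exceptions being Cd163 and Lyve1. These counts describe the contrasts on which the genes were chosen, where 2.43% of all genes tested were called lower at D4 than at 10.5 dpp (3.45% higher), 5.82% lower at D4 than at 6.5 dpp (6.87% higher) and 16.6% higher at D16 than at D4 (3.21% lower). Calls ask for an adjusted p and a 2-fold change, a stricter measure than ranges without overlap. The share of all genes without overlap was not counted, here or for the later steps. Counts of members without overlap therefore cannot be weighed against the called shares. The size of the drop ranged from 1.65-fold for Cd163 to 46.6-fold for F13a1, leaving out Lyz2.

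From 6.5 to 10.5 dpp the values of 5 genes all lay above the earlier range, Csf1r, Cx3cr1, Adgre1, Mrc1 and F13a1, and those of the other 5 overlapped. Over all genes 0.545% were called higher and 0.358% lower by edgeR, a stricter measure. Both stages took part in the choice of the members, so the step is described with no test. F13a1 had the largest fitted change, 1.47 (SE 0.358), followed by Csf1r at 0.88 (SE 0.238) and Adgre1 at 0.88 (SE 0.229). The 1 fresh library at 6.5 dpp was the highest of its stage for Csf1r, Adgre1, Mrc1 and F13a1. Without it, when 6.5 dpp holds CSF tissue only and age and freezing cannot be told apart, the fitted changes were 1.65 for F13a1, 1.14 for Adgre1 and 1.12 for Csf1r.

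From 10.5 to 22.5 dpp, when spermatocytes fill the tubules, 7 genes had every 22.5 dpp library above every 10.5 dpp library, and Adgre1, Lyve1 and Tyrobp overlapped. By the stricter measure of calls, 27.9% of all genes were higher and 18.4% lower. This step too is a description, since the 10.5 dpp libraries took part in the choice. The fitted change was 1.59 (SE 0.419) for Lyz2 and 1.06 (SE 0.387) for F13a1. Csf1r, Cx3cr1, Adgre1, Mrc1 and Cd68 lay between 0.61 and 0.97, and Tyrobp was at 0.40 (SE 0.52). Scaling moved this step: with library size alone the median gene shifted by -0.286, and the share of calls that were higher went from 60.2% to 48.1%.

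The step from 22.5 to 36.5 dpp rests on libraries that set neither the drop nor the return, and it was tested. With spermatids present, 4 of the 10 genes fell: Cx3cr1 by 1.28 (SE 0.233, adjusted p = 0.000273), Adgre1 by 1.08 (SE 0.286, 0.00472), F13a1 by 1.43 (SE 0.451, 0.0139) and Cd68 by 1.32 (SE 0.253, 0.000422). Of all genes tested 17.2% were called lower and 20.5% higher. Csf1r was at -0.91 (SE 0.294, adjusted p = 0.0159) and Mrc1 at -0.97 (SE 0.238, adjusted p = 0.00277), each with both libraries below those at 22.5 dpp. The median of all genes moved by -0.509 under library size alone and by 0.192 under median-ratio (RLE) factors, and the share of calls that were higher was 54.4% as fitted, 30.2% and 67.3%. Leaving out 36.5 dpp replicate 1 left Adgre1 and F13a1 uncalled (F13a1 -1.32, adjusted p = 0.0981), leaving out replicate 2 put Cd68 at -0.99, and Adgre1 was also lost without 22.5 dpp replicate 2.

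Whether the cultured macrophage signal matched that of the same age in vivo was asked by D16 against 22.5 dpp. These D16 libraries are the ones in which the return was seen, so the values are a description. F13a1, Mrc1 and Csf1r had both D16 libraries below every 22.5 dpp library, Lyz2 and Tyrobp had both above, and the other 5 overlapped. By the stricter measure of calls, 8.24% of all genes were lower and 8.83% higher. F13a1 was 23.2-fold lower in mean CPM at D16, with a fitted change of -4.69 (SE 0.537). Mrc1 stood at -1.23 (SE 0.241), Csf1r at -0.62 (SE 0.29) and Cx3cr1 at -0.48 (SE 0.224). Adgre1 (-0.07, SE 0.274) and Cd68 (0.05, SE 0.239) were near 0, and Tyrobp (0.79, SE 0.571) and Lyz2 (1.37, SE 0.451) were above it. For Cx3cr1, Adgre1 and Cd68 a 2-fold difference lay outside the fitted change ± 2 SE, and for Csf1r and Tyrobp inside it. These spans are no test of equal levels, since the return by D16 was part of the choice of the genes.

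Single libraries moved part of this, since D16 had 2. The fitted change of Mrc1 was -0.98 without D16 replicate 1, and that of Lyz2 was 1.23 without D16 replicate 2. With library size alone the median gene moved by 0.15 and the share of calls that were higher went from 51.7% to 67.4%, and with RLE factors to 41.4%.

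From D16 to D30 the fitted change was positive for 8 of the 10 genes, the exceptions being Cd163 and Lyve1. D30 was above D16 without overlap for Adgre1, Mrc1 and F13a1, and the other 7 overlapped. By the stricter measure of calls, 1.41% of all genes were higher and 0.254% lower. As the D16 libraries took part in the choice, no test is given. F13a1 had the largest fitted change, 1.91 (SE 0.456), and its mean was 3.75-fold higher. Without D16 replicate 1 its fitted change was 1.48 and without D16 replicate 2 it was 2.54. Mrc1 was at 0.89 (SE 0.228). The CSF library at D30 was the highest of the stage for Cx3cr1, Lyz2 and Tyrobp and the lowest for Mrc1 and Cd68.

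D30 against 36.5 dpp is the contrast farthest from the choice of the genes, since its groups are not those of the drop and the return, although the D30 levels were also seen. Adgre1 was higher in culture by 1.46 (SE 0.281, adjusted p = 0.000218), Cd68 by 1.55 (SE 0.247, adjusted p = 3.94e-05) and Lyz2 by 2.15 (SE 0.484, adjusted p = 0.000835). F13a1 was lower, at -1.35 (SE 0.395, adjusted p = 0.00609). Csf1r, Cx3cr1 and Mrc1 were higher at adjusted p of 0.0263, 0.000918 and 0.0187 but by less than 2-fold (0.74, 0.97 and 0.64). Called were thus 3 genes higher and 1 lower of 10, beside 25.2% of all genes higher and 29.8% lower.

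This contrast depended on scaling. At 36.5 dpp the scaling factors were the lowest of the series, and with library size alone the median gene moved by 0.635 and the share of calls that were higher went from 45.9% to 65.9% (37.1% with RLE). These 6 genes and Tyrobp (1.53, adjusted p = 0.0251) were then called higher, and F13a1 stood at -0.68 (adjusted p = 0.147), its libraries overlapping between the groups. On CPM, 7 of the 10 had all 4 D30 libraries above both 36.5 dpp libraries. The share of all genes with such a separation was not counted. With library size alone the median of all genes was 0.604, with 7548 called higher and 3909 lower of 19255. Genes in general thus stood higher at D30 on this scale, and the separation of the members could not be weighed against that. Tyrobp was called higher without 36.5 dpp replicate 1 (2.13, adjusted p = 0.0224), and Cd163 and Lyve1 were called lower without D30 replicate 3 (-1.65, 0.0218, and -2.11, 0.0084).

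**Figure D2:**
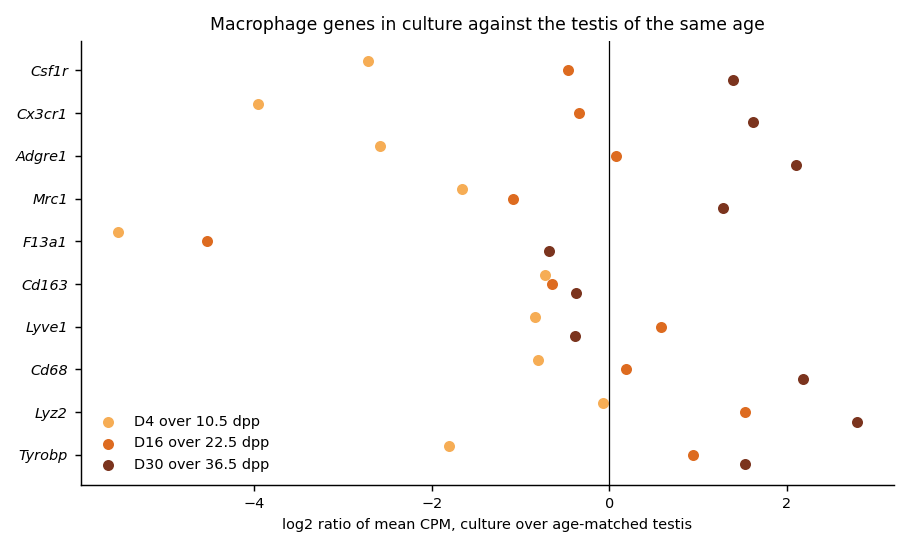
Log2 ratio of the mean CPM in culture to that of the age-matched testis (x axis) for each gene (y axis), at D4 over 10.5 dpp, D16 over 22.5 dpp and D30 over 36.5 dpp. Points right of the line are higher in culture. F13a1 and Cd163 are below 0 in all 3 pairs, Lyz2 is near 0 at D4 and above 0 at D16 and D30, and Csf1r, Cx3cr1, Adgre1 and Cd68 go from below 0 at D4 to above 0 at D30.

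The effect of culture at D30 minus that at D16, each against its age-matched testis, was fitted after the values had been seen, and it draws on the D16 libraries, so it is a description. It was more positive at D30 by at least 2-fold for 6 genes: F13a1 (3.34), Mrc1 (1.87), Adgre1 (1.53), Cd68 (1.5), Cx3cr1 (1.46) and Csf1r (1.36). Of all genes tested 9.11% were called with a more positive and 8.26% with a more negative effect at D30. With library size alone the median gene moved by 0.482 and the share of calls that were more positive went from 52.5% to 81%, and with RLE factors to 38.8%.

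Because Ptprc (CD45) is made by all leukocytes, each gene was also set against it within a library, as a description. Csf1r was 10.3 to 13 times Ptprc at 10.5 dpp and 9.38 to 13 times at 22.5 dpp, but its multiple in culture was 4 to 5.32 at D4 and 5.27 to 5.71 at D16, and 5.42 to 6.81 in the D30 libraries. F13a1 went from 14.4 to 20.3 times at 10.5 dpp to 0.895 to 1.07 at D4 and 0.402 to 0.681 at D16, with 1.11 to 2.59 at D30. The F13a1 ratio was thus lower at D16 than at D4, although its CPM was higher. Mrc1 kept near its in vivo ratio at D4 (19.3 to 21, against 21.5 to 27.9 at 10.5 dpp) and had 7.03 to 8.32 at D16. Cd68 was 4.71 to 6.47 times Ptprc at D4, above the 3.21 to 4.25 of 10.5 dpp. The D4 range overlapped the 4.31 to 4.99 of 6.5 dpp. Lyz2 was 35.7 to 57.5 at D4 and 62.2 to 63 at D16, against 16.1 to 24.4 at 10.5 dpp. It was 12.3 to 42.5 at 6.5 dpp, 25.9 to 38.2 at 22.5 dpp and 19.9 to 41.15 at 36.5 dpp, each overlapping D4. Cx3cr1 was 4.92 to 7.14 times Ptprc at 10.5 dpp, 0.718 to 1.09 at D4 and 2.42 to 2.71 at D16. At 6.5 dpp it was 4.65 to 6.58. At 36.5 dpp it was 2.163 to 2.315, below D16 and inside the D30 range of 1.82 to 2.92. Ptprc itself was at 2.2 ± 0.317 (SD, n = 3) CPM at 10.5 dpp, 0.862 ± 0.0856 (SD, n = 3) at D4 and 5.12 ± 0.882 (SD, n = 2) at D16.

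**Figure D3:**
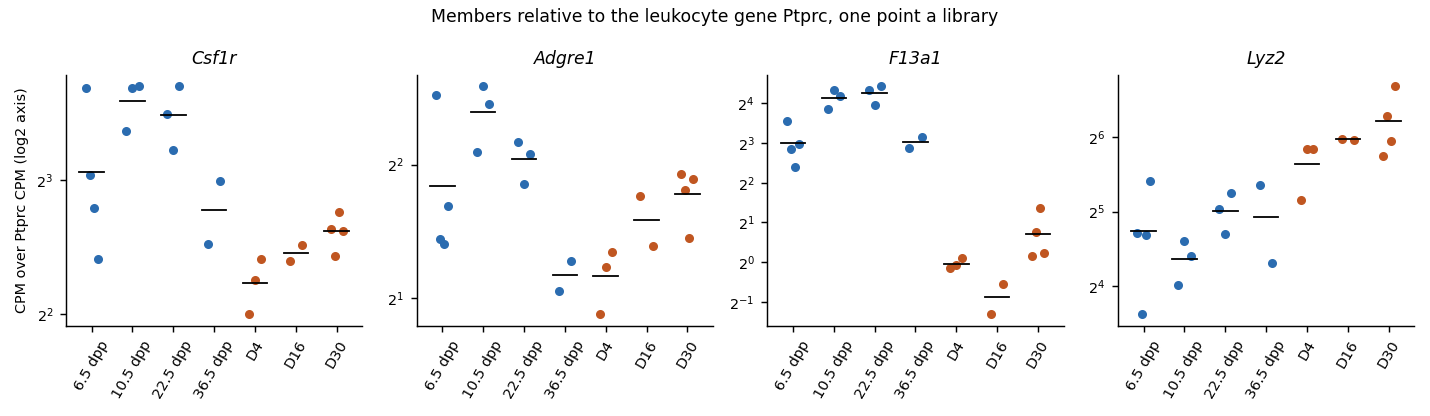
Ratio of the CPM of Csf1r, Adgre1, F13a1 and Lyz2 to that of Ptprc in each library (y axis, log2 scale, one panel per gene) by stage (x axis). The F13a1 ratio lies between 14.4 and 21.7 at 10.5 and 22.5 dpp and between 5.25 and 11.8 at 6.5 and 36.5 dpp. It is at most 2.59 in all cultured libraries. The Lyz2 ratio is at least 35.7 in all cultured libraries, and in vivo it reaches 42.5 at 6.5 dpp and 41.15 at 36.5 dpp.

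None of the 3 ligands of the member receptors was called at D4 against 10.5 dpp by edgeR or DESeq2 (2 higher at an unadjusted p under 0.05). Csf1, which binds Csf1r, had 17.3 CPM at 6.5 dpp and 23.5 at 10.5 dpp, and 40 to 43.7 in the 3 D4 libraries, above all of them. It rose from 6.5 dpp to D4 by 1.31 (SE 0.22, adjusted p = 0.000347) and was at 0.93 (SE 0.238, adjusted p = 0.0198) against 10.5 dpp. Il34, the other Csf1r ligand, rose to D4 from 6.5 dpp by 1.19 (SE 0.245, adjusted p = 0.002) and again from D16 to D30, from 2.22 to 7.75 CPM, by 1.84 (SE 0.297, adjusted p = 0.00453). Cx3cl1, the ligand of Cx3cr1, was at 27.2 CPM at 10.5 dpp and 24.6 at D4, and changed from D4 to D16 by -1.16 (SE 0.273, adjusted p = 0.0038). All 3 ligands were called higher at D30 than at 36.5 dpp, by 2.00, 2.44 and 2.07, as were 25.2% of all genes. None of the 3 was called at D16 against 22.5 dpp (0 at an unadjusted p under 0.05, 0 by DESeq2).

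Further macrophage genes were grouped in 7 lists of 92 genes, of which 87 were tested. At D4 against 10.5 dpp 12 were called higher and 20 lower, at D16 against D4 36 and 1, at D16 against 22.5 dpp 22 and 12, at D30 against D16 4 and 0, and at D30 against 36.5 dpp 43 and 16. At D4 against 6.5 dpp 18 were higher and 20 lower. Of all genes tested, 3.45% were called higher and 2.43% lower at D4 against 10.5 dpp, and 16.6% and 3.21% at D16 against D4. At D16 against 22.5 dpp the shares were 8.83% and 8.24%, and at D30 against D16 1.41% and 0.254%. They were 25.2% and 29.8% at D30 against 36.5 dpp, and 6.87% and 5.82% at D4 against 6.5 dpp. In vivo, 2 and 2 were called from 6.5 to 10.5 dpp, 29 and 8 from 10.5 to 22.5 dpp, and 7 and 12 from 22.5 to 36.5 dpp. Over all genes these in vivo steps had 0.545% higher and 0.358% lower, 27.9% and 18.4%, and 20.5% and 17.2%. The counts called in each list, in the paragraphs that follow, stand beside the same shares. The lists were written with earlier results of these data known, so their counts are descriptions and no list was tested as a whole.

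Of 10 macrophage transcription factors, 3 were called lower at D4 than at 10.5 dpp and none higher. Spi1 had 2.65, 2.89 and 2.78 CPM at 10.5 dpp, 0.72, 0.935 and 0.855 at D4 and 5.03 and 4.94 at D16, with no overlap between D4 and either, and changed by -1.64 (SE 0.261, adjusted p = 0.000473) and then by 2.62 (SE 0.282, adjusted p = 1.28e-06). Spic, which splenic and bone marrow iron-recycling macrophages need, changed by -2.59 (SE 0.42, adjusted p = 0.000582) at D4 and was also lower at D16 than at 22.5 dpp (-2.45 (SE 0.523, adjusted p = 0.00354)). Cebpa was also lower at D4 (-1.09). At D16 against 22.5 dpp Cebpb was called higher (1.90) and the list median was 0.07. At D30 against 36.5 dpp 1 was higher, Irf5 (1.33), and 1 lower, Spic (-1.83).

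Among 25 genes made by macrophages in general or by all leukocytes, 8 were lower and 2 higher at D4 than at 10.5 dpp, and 18 were higher and none lower at D16 than at D4, with a list median of 2.03 against 0.03 over all genes. The complement genes C1qa, C1qb and C1qc, which tissue macrophages secrete, changed by -2.11, -2.25 and -2.62 at D4 and rose at D16 by 2.98, 3.17 and 3.03. Ptprc changed by -1.27 and 2.62, and Laptm5, a lysosomal protein of hematopoietic cells, by -1.69 and 2.24. Against this course Cd14, a co-receptor for lipopolysaccharide, rose at each step of culture, by 1.79 at D4, 1.5 at D16 and 1.56 at D30, from 1.33 CPM at 10.5 dpp to 34.3 at D30. The pore-forming Mpeg1 rose at D4 by 2.26. At D16 against 22.5 dpp 5 were higher and none lower. At D30 against 36.5 dpp 17 were higher, led by Cd14 (3.34) and Mpeg1 (3.04), and 2 lower, Aif1 (-3.98) and Fcgr3 (-1.16). Aif1 had 416 CPM at 36.5 dpp against 18.3 at 22.5 dpp, a rise of 4.98 where Csf1r and Cx3cr1 had lower values. It made up most of the summed level of the list at 36.5 dpp, 576 to 613 CPM. The cells that made Aif1 there were not tested, so its level is not read as one of macrophages.

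Resident, long-lived tissue macrophages were represented by 15 genes. At D4 against 10.5 dpp 8 were lower and none higher (median -1.43). At D16 against D4 5 were higher, yet at D16 against 22.5 dpp 7 were lower and none higher (median -1.03 against -0.0847 over all genes). The apoptotic-cell receptor Timd4 was lower at D16, at -5.05 (SE 1.03, adjusted p = 0.00259), as was the chemokine Ccl24 (-4.28 (SE 0.789, adjusted p = 0.00117)). The carbonyl reductase Cbr2 had 24.3, 27.1 and 23 CPM at 22.5 dpp and 1.03 and 1.75 at D16 (-4.31 (SE 0.71, adjusted p = 0.000447)). The lectin receptor Cd209f had 8.79, 15.1 and 9.93 CPM at 22.5 dpp and 0 counts in both D16 libraries, at least 160-fold lower when 3 counts per library are taken as the floor. Its paralog Cd209g, similar enough that short reads could be split between them, had 2.59 CPM at 22.5 dpp and at most 3 counts per library at D16. The folate receptor Folr2 (-1.5) and the lectin Clec10a (-1.03) were the other 2. Not all of the list stayed low: Pf4 changed by -3.71 at D4 and 2.20 at D16, and Siglec1, a sialic acid receptor, was higher at D30 than at 36.5 dpp (1.97). The chemokine Ccl8 went from 0.144 CPM at D16 to 7.31 at D30 (5.68 (SE 0.822, adjusted p = 0.00362)). At D30 against 36.5 dpp 3 of the 15 were higher and 7 lower, beside 25.2% of all genes higher and 29.8% lower.

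Of 14 genes of debris clearing and lipid handling, 6 were called higher at D4 than at 10.5 dpp, 9 at D16 than at 22.5 dpp and 11 at D30 than at 36.5 dpp, and 0, 0 and 1 were lower. The median at D16 against 22.5 dpp was 2.22. Gpnmb, a glycoprotein of phagocytes loaded with debris, had 0.539, 0.25 and 0.255 CPM at 10.5 dpp and 16.6, 28.6 and 17.6 at D4, a rise of 5.98 (SE 0.548, adjusted p = 1.44e-06), and was higher at D16 by 5.69. Mmp12, macrophage elastase, had at most 3 counts per library at 10.5 dpp and 5.55, 9.02 and 4.98 CPM at D4, then 14.2 at D16 and 16.1 at D30. So at the stage where Csf1r and Cx3cr1 were lowest, Mmp12 was present in all 3 libraries. The galectin Lgals3 rose at D4 by 3.06 and stood higher at D16 and D30 by 3.31 and 4.03, and osteopontin, Spp1, by 3.2, 5.17 and 3.69. The integrin Itgax differed by 2.62, 2.57 and 1.86, the scavenger receptor Marco by 4.04 at D16 and 4.02 at D30, and lipoprotein lipase, Lpl, by 2.20 and 4.46. Gpnmb, Lgals3, Spp1 and Lpl are also made by other cells of the testis, and their source was not tested.

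Of 10 activation genes tested, 4 were higher and none lower at D4 than at 10.5 dpp, 7 and 0 at D16 than at 22.5 dpp, and 8 and 1 at D30 than at 36.5 dpp. The monocyte-attracting chemokine Ccl2 had 0.436 to 0.64 CPM at 10.5 dpp and 2.11 to 2.54 at D4 (2.26 (SE 0.627, adjusted p = 0.0312)), and was higher at D16 (2.24) and D30 (5.47). Arginase, Arg1, changed by 1.5, 3.06 and 3.59 in the same 3 contrasts, and Tnf was higher at D16 by 3.17. The summed level of the list was 2.8 to 3.75 CPM at 10.5 dpp and 8.34 to 10.7 at D4. Il6 had 0 counts at 36.5 dpp and 2 to 60 counts per library at D30 (0.0504 to 1.51 CPM, median 0.15). Its D30 mean of 0.464 CPM came mostly from the highest library, so no bound on the fold is given. Ccl4 was at the floor at 10.5 dpp and at 0.205 CPM at D4.

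The 7 genes of MHC class II presentation were not called in either direction at D4 against 10.5 dpp or at D16 against D4, by edgeR or DESeq2, and 1 had an unadjusted p under 0.05, at D4. In vivo 6 of them rose from 10.5 to 22.5 dpp, a step at which 27.9% of all genes were called higher. H2-Ab1 (3.49), H2-DMb1 (3.05) and H2-DMa (2.03) were among the 6, and these 3 were lower at D16 than at 22.5 dpp (-2.16, -2.36 and -1.21). H2-Ab1 was at 17.6 CPM at 22.5 dpp and 4.49 at D16. Of 6 tested genes around Tyrobp, 1 was lower at D4, Vav1 (-1.49), and 4 were higher at D16 than at D4. Trem2, a lipid-sensing receptor that signals through Tyrobp, rose by 1.26 and was higher at D30 than at 36.5 dpp by 2.81. Syk, its kinase, changed from D4 to D16 by -1.24 and was higher at D30 than at 36.5 dpp by 3.22. At D30 against 36.5 dpp 3 of the 6 were higher and 3 lower, and of the MHC class II genes 1 was lower, H2-DMa (-1.93).

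**Figure D4:**
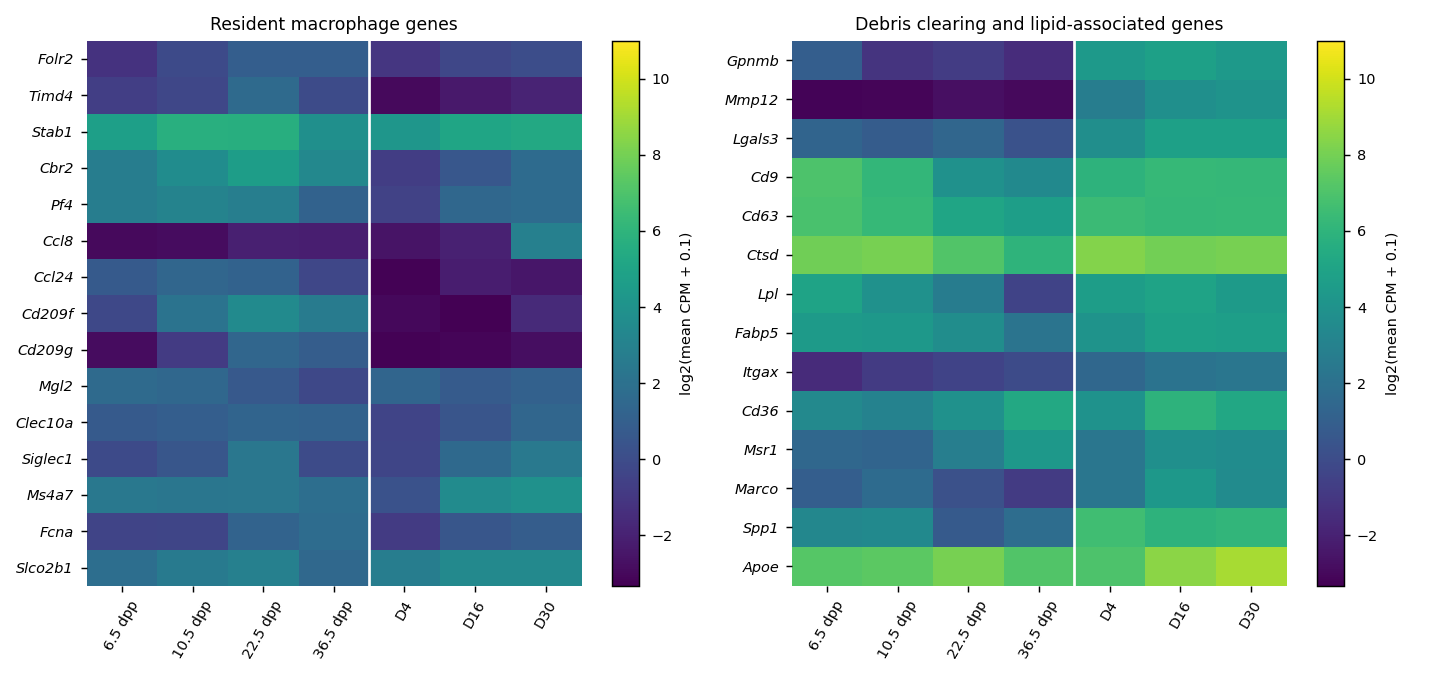
Mean level per stage, as log2 of CPM + 0.1 (colour, dark for low and yellow for high, up to 11), of the resident macrophage genes and of the debris clearing and lipid-associated genes (rows), by stage (columns). Timd4, Cbr2, Ccl24 and Cd209f are darker at D4, D16 and D30 than at every in vivo age, and Gpnmb, Mmp12 and Itgax are brighter.

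Markers of other cells that could carry the member genes were followed beside them. Monocytes share Csf1r, Cx3cr1, F13a1 and Lyz2. The chemokine receptor Ccr2 of monocytes had 0.629, 0.806 and 0.455 CPM at 10.5 dpp, 0.139, 0.0719 and 0.13 at D4 and 1.41 and 1.42 at D16, changing by -2.32 and then by 3.63, and was called at both steps, the first lost without D4 replicate 2 (-2.11, adjusted p = 0.0568 by edgeR). The integrin Itga4 was called lower at D4 (-2.26), a call lost with 6.5 dpp fresh replicate 1 kept (adjusted p = 0.0544 by edgeR). Plac8 went the other way, with a mean of 13.3 CPM at 10.5 dpp and 40.5 at D4 (1.69, adjusted p = 0.145), and so did Ly6c2, at 0.0499 and 0.246 CPM (2.19, adjusted p = 0.169). Neither passed the test, and neither these nor Itga4 were called at D16 against D4. Summed levels of the neutrophil, mast cell and lymphoid lists were small. Neutrophil genes had 0.594 to 3.32 CPM over all libraries, mast cell genes 0.0674 to 2.22 and lymphoid genes 2.39 to 22, the last highest at 36.5 dpp (11.8 to 22). No neutrophil or mast cell gene was called at D4 against 10.5 dpp by edgeR or DESeq2 (2 neutrophil and 0 mast cell genes at an unadjusted p under 0.05), and 1 lymphoid gene was called higher and 1 lower. Of 4 dendritic cell genes none was called there (1 at an unadjusted p under 0.05, 0 by DESeq2). The dendritic cell list summed to 76.4 to 84.4 CPM at 10.5 dpp and 67.9 to 69.4 at D4, mostly Zbtb46 (means of 78.6 and 65.7). Flt3, Xcr1 and Clec9a had means of 0.982, 1.15 and 0.266 CPM at 10.5 dpp. The sum is therefore no measure of dendritic cells, and the source of Zbtb46 was not tested. Platelets also hold F13a1, but their genes Ppbp, Gp9, Gp1bb and Gp6 had 0 to 7 counts per analysed library, so their course was not measurable at this depth. The summed level of the list, 44.7 to 49.3 CPM at 10.5 dpp, was mostly Itgb3, which other cells also make, and the part of platelets in the F13a1 level was not tested.

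Of 8 blood endothelial genes 2 were higher at D4 than at 10.5 dpp, Kdr (1.27) and Tie1 (1.25), and 1 lower, Tek (-1.19), and 6 were higher at D16 than at 22.5 dpp. Of 4 lymphatic endothelial genes 1 was higher at D4, Flt4 (1.75), and the member Lyve1 is also made by that cell type. Of 4 erythroid genes 3 were called lower at D4 than at 10.5 dpp. The globin genes Hbb-bt and Hba-a1 had 22.6 and 36.6 CPM at 10.5 dpp and 0.0569 and 0.143 at D4. The heme synthesis gene Alas2 had higher values in culture, with a mean of 10.1 CPM at 10.5 dpp, 16.7 at D4 (0.81, adjusted p = 0.104) and 50.4 at D30. Of 8 interstitial stroma genes 2 were higher at D4, Lum (1.98) and Col3a1 (1.35), with summed levels of 7945 to 10191 CPM against 4866 to 5329 at 10.5 dpp. None of the 9 testis tissue genes was called at D4 (2 at an unadjusted p under 0.05, 0 by DESeq2). The part of these shifts in tissue make-up in the levels of the macrophage genes was not tested.

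The genes whose course was most like the mean of the 10 members over the 21 libraries, among 15764 genes with a mean of at least 1 CPM, were Ncf1 (Pearson's r 0.968), Lyl1 (0.952), Laptm5 (0.948), C1qc (0.945), Sash3 (0.923), Tlr7 (0.919), Tnfaip8l2 (0.917), C1qa (0.913), Nfam1 (0.902), Lrrc25 (0.892), Spi1 (0.891), P2ry12 (0.886), Hpgds (0.881), Pirb (0.878) and Sla (0.878). The likeness is a description, since libraries share stages. By Spearman's rho 11 of these 15 were again among the top 15, and 5 each within the in vivo and within the cultured libraries. Members themselves ranged from 0.977 for Csf1r, 0.941 for Adgre1 and 0.937 for Mrc1 to 0.655 for F13a1, 0.641 for Lyz2, 0.469 for Cd163 and 0.317 for Lyve1. Between pairs of members r ran from -0.167 (Lyve1 with Tyrobp) to 0.954 (Csf1r with Adgre1).

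Freezing was compared with stage held constant, which rests on 1 fresh library at 6.5 dpp and 1 CSF library at D30. None of the 10 genes was called, and none had an unadjusted p under 0.05. Fitted changes in CSF tissue ran from -1.04 for Lyve1 to 0.81 for Tyrobp, with adjusted p from 0.648 to 0.832. Of all genes 0% were called in either direction (1261 at an unadjusted p under 0.05), and no other tool was run on this term. Csf1r was at -0.41 with an SE of 0.228, so a 2-fold difference lies outside 2 SE for it, while for Tyrobp the SE was 0.474.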

How the data were processed

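Testes and testis explants were measured by poly(A)-selected stranded RNA-seq with single 50-base reads. The authors aligned the reads to GRCm38 with STAR 2.7.3a and counted reads per gene in the intersection-nonempty mode of HTSeq 0.12.4, per the study's methods and processing notes, and deposited 1 table of raw counts with 23 columns. The strand setting of the counting is not given in the sources used here, so reads of Csf1r, Cx3cr1, Adgre1, Mrc1, F13a1 and Cd163 and of the genes annotated over them may not be told apart. Ambiguous reads are dropped in this mode. IDs without a symbol (93, holding 0.0207% of counts) entered the fit without a name.

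Counts were fitted with edgeR 4.0.16 (quasi-likelihood, TMM factors, filterByExpr) in R 4.3.3, in 1 fit of 21 libraries and 7 stages. Benjamini-Hochberg adjusted p-values cover all 19255 genes tested. TMM factors ran from 0.645 to 1.15. CPM values are on the library total, of 28351546 to 69029328 counts. The scripts were tested on simulated data. Alternatives were DESeq2 1.42.0, other scaling, other filters and thresholds, other sample sets, a replicate block and each library left out. Counts of at most 3 per library in a whole stage were taken as the floor.

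The members and all gene lists were chosen with earlier results of these data known. Tests of the members planned for contrasts that share stages with that choice are given as fitted values only. Besides the members, Csf1, Il34, Cx3cl1, Ptprc and Spi1 were named always, and from each list up to 5 genes with the largest change among those called, the testis tissue genes, and the 15 genes of most like course. Other genes were chosen after their values were seen. One gene of the monocyte list is not reported here.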

Additional observations from a re-analysis of the deposited data

Results flagged for a closer look

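One library outside the comparisons, 6.5 dpp fresh replicate 1, held 4 of the macrophage genes above the level of all 4 analysed 6.5 dpp libraries. Csf1r had 23.12 CPM there (highest of the others 20.5), Adgre1 13.17 (9.12), Cd68 9.692 (9.05) and Lyz2 117.7 (76.4). F13a1 and Lyve1 lay below the range of the others, at 0.921 and 0.546 CPM, and Cx3cr1, Mrc1, Cd163 and Tyrobp within it. The values are a single library's, and their source was not tested.

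The effect of culture against the age-matched testis was more positive at D30 than at D16 for 6 genes, past the threshold of a term for the difference in edgeR, on the log2 scale. The differences were 1.499 for Cd68, 1.357 for Csf1r, 1.457 for Cx3cr1, 1.533 for Adgre1, 1.865 for Mrc1 and 3.342 for F13a1. The D16 libraries took part in the choice of these genes, so the values are a description. They hold both the step from 22.5 to 36.5 dpp in vivo and that from D16 to D30 in culture, which for F13a1 were -1.43 and 1.91. No library was flagged as standing apart in the 20 groups of 4 libraries tested. Only 6.5 dpp and D30 held 4 libraries, so the other stages were not tested. With so few values a library can lie far from the rest without a flag, as D30 replicate 3 did for F13a1.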

How the results depend on the processing

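Directions and calls of the members were recomputed under scaling, filters, tools, thresholds and sample sets. For the members, calls in contrasts that draw on the 6.5 dpp, 10.5 dpp or D16 libraries describe the fit and are no independent test, since those libraries took part in their choice. Removing the low-count filter left every count of calls within 1.5 times. Apart from the scaling settings, calls over all genes are not given for these settings, here or with libraries left out. A change in the counts below can then not be told from a change in calls over all genes. With RLE factors, 1 list gene was called higher for 10.5 dpp against 6.5 dpp and 5 lower for 22.5 dpp against 10.5 dpp. For 36.5 dpp against 22.5 dpp 11 were called higher. Over all 19255 genes tested these calls were 92, 3264 and 4473, in the same order. With library size alone, 1 member was called higher for 22.5 dpp against 10.5 dpp. For D30 against 36.5 dpp 7 members were called higher and 0 lower. Over all genes these calls were 4651, 7548 and 3909. Of the list genes, 1 was called lower for 10.5 dpp against 6.5 dpp and 32 for 36.5 dpp against 22.5 dpp. For D30 against 36.5 dpp 9 list genes were called lower. Over all genes these calls were 56, 6785 and 3909. By DESeq2, calls were among the members 1 higher for 10.5 dpp against 6.5 dpp, and among the list genes 12 higher for 36.5 dpp against 22.5 dpp and 7 higher for D30 against D16. With 6.5 dpp fresh replicate 1 kept in its group, calls were among the members 1 higher for 22.5 dpp against 10.5 dpp, 0 higher for D16 against 22.5 dpp, 0 higher for D30 against D16 and 0 lower for D30 against 36.5 dpp, and among the list genes 1 higher for 10.5 dpp against 6.5 dpp, 0 lower for 10.5 dpp against 6.5 dpp, 5 higher for D4 against 6.5 dpp, 3 higher for D4 against 10.5 dpp, 13 lower for D4 against 10.5 dpp, 17 higher for D16 against D4, 12 higher for D16 against 22.5 dpp, 6 lower for D16 against 22.5 dpp and 2 higher for D30 against D16. With fresh libraries only, calls were among the list genes 0 higher for 10.5 dpp against 6.5 dpp, 0 lower for 10.5 dpp against 6.5 dpp, 11 higher for D4 against 6.5 dpp and 12 lower for D4 against 6.5 dpp. With the replicate block, calls were among the members 1 higher for 10.5 dpp against 6.5 dpp, and among the list genes 1 higher for 10.5 dpp against 6.5 dpp and 1 lower for 10.5 dpp against 6.5 dpp. With only the groups compared in the fit, calls were among the members 1 lower for D16 against 22.5 dpp, 0 higher for D30 against D16 and 0 lower for D30 against 36.5 dpp, and among the list genes 0 higher for 10.5 dpp against 6.5 dpp, 0 lower for 10.5 dpp against 6.5 dpp and 0 higher for D30 against D16. With the short-transcript balance as a covariate, added after seeing the data, calls were among the members 1 higher for 10.5 dpp against 6.5 dpp and 3 lower for D30 against 36.5 dpp, and among the list genes 7 higher for D30 against D16. At a log2 change of at least 2 and an adjusted p of at most 0.001, calls were among the members 0 higher for 22.5 dpp against 10.5 dpp, 0 lower for 36.5 dpp against 22.5 dpp, 0 higher for D16 against 22.5 dpp, 1 lower for D16 against 22.5 dpp, 0 higher for D30 against D16, 1 higher for D30 against 36.5 dpp, 0 lower for D30 against 36.5 dpp and 0 higher for the effect at D30 minus that at D16, and among the list genes 0 higher for 10.5 dpp against 6.5 dpp, 0 lower for 10.5 dpp against 6.5 dpp, 11 higher for 22.5 dpp against 10.5 dpp, 0 lower for 22.5 dpp against 10.5 dpp, 3 higher for 36.5 dpp against 22.5 dpp, 1 lower for 36.5 dpp against 22.5 dpp, 7 higher for D4 against 6.5 dpp, 7 lower for D4 against 6.5 dpp, 4 higher for D4 against 10.5 dpp, 8 lower for D4 against 10.5 dpp, 12 higher for D16 against D4, 0 lower for D16 against D4, 10 higher for D16 against 22.5 dpp, 3 lower for D16 against 22.5 dpp, 0 higher for D30 against D16, 18 higher for D30 against 36.5 dpp and 5 lower for D30 against 36.5 dpp. With no minimum fold, calls were among the members 7 higher for 22.5 dpp against 10.5 dpp and 6 higher for D30 against 36.5 dpp, and among the list genes 13 lower for 22.5 dpp against 10.5 dpp and 19 lower for 36.5 dpp against 22.5 dpp.

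With fresh libraries only the sign turned for Cd163 (-0.27, 10.5 dpp against 6.5 dpp), Lyz2 (0.0943, 10.5 dpp against 6.5 dpp), Tyrobp (0.18, 10.5 dpp against 6.5 dpp) and Tyrobp (-0.23, the effect at D30 minus that at D16). With RLE factors the sign turned for Cd68 (-0.0283, 10.5 dpp against 6.5 dpp), Cd163 (0.19, 36.5 dpp against 22.5 dpp), Cd68 (-0.0463, D16 against 22.5 dpp) and Tyrobp (-0.0753, the effect at D30 minus that at D16). By DESeq2 the sign turned for Cd68 (-0.0272, 10.5 dpp against 6.5 dpp), Cd163 (0.18, 36.5 dpp against 22.5 dpp) and Cd68 (-0.0479, D16 against 22.5 dpp). With 6.5 dpp fresh replicate 1 kept in its group the sign turned for Cd68 (-0.11, 10.5 dpp against 6.5 dpp) and Lyz2 (-0.22, freezing). With only the groups compared in the fit the sign turned for Cd163 (0.084, 36.5 dpp against 22.5 dpp). With library size alone the sign turned for Lyve1 (-0.0368, 36.5 dpp against 22.5 dpp), Tyrobp (-0.18, 36.5 dpp against 22.5 dpp), Adgre1 (0.0741, D16 against 22.5 dpp) and Cd163 (0.26, the effect at D30 minus that at D16). With the short-transcript balance as a covariate the sign turned for Lyve1 (-0.10, D16 against 22.5 dpp) and Cd163 (0.16, the effect at D30 minus that at D16). With the replicate block the sign turned for Cd163 (0.12, the effect at D30 minus that at D16) and Tyrobp (-0.0405, the effect at D30 minus that at D16). None of these members' changes passed the test in the reported fit or in the alternative named. The effect at D30 minus that at D16 was added after seeing the data.

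With each library left out in turn, a stage left with 1 library is assumed to vary like the others, and members called higher ran 0 to 3 for 10.5 dpp against 6.5 dpp, 1 to 4 for 22.5 dpp against 10.5 dpp, 0 to 1 for D16 against 22.5 dpp, 0 to 1 for D30 against D16 and 3 to 5 for D30 against 36.5 dpp, members called lower ran 2 to 5 for 36.5 dpp against 22.5 dpp, 1 to 2 for D16 against 22.5 dpp and 1 to 3 for D30 against 36.5 dpp, list genes called higher ran 1 to 2 for 10.5 dpp against 6.5 dpp, 13 to 26 for D16 against 22.5 dpp and 0 to 5 for D30 against D16 and list genes called lower ran 0 to 2 for 10.5 dpp against 6.5 dpp, 4 to 9 for 22.5 dpp against 10.5 dpp, 13 to 22 for D4 against 6.5 dpp, 0 to 1 for D16 against D4 and 5 to 16 for D16 against 22.5 dpp. Signs turned for values that spanned zero: Cd68 -0.11 to 0.0584, Lyz2 -0.39 to 0.31 and Tyrobp -0.56 to 0.35 for 10.5 dpp against 6.5 dpp, Lyve1 -0.41 to 0.14 for 22.5 dpp against 10.5 dpp, Cd163 -0.62 to 0.42, Lyz2 -0.91 to 0.18 and Tyrobp -0.93 to 0.99 for 36.5 dpp against 22.5 dpp, Adgre1 -0.17 to 0.0259, Lyve1 -1.94 to 1.27 and Cd68 -0.0499 to 0.20 for D16 against 22.5 dpp, Cd163 -0.96 to 1.34 and Lyve1 -2.05 to 1.37 for D30 against D16, Cd163 -0.94 to 1.35, Lyve1 -2.54 to 0.89 and Tyrobp -0.58 to 1.35 for the effect at D30 minus that at D16, Cx3cr1 -0.16 to 0.37, Adgre1 -0.82 to 0.16 and Cd68 -0.47 to 0.0491 for freezing.

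Same-numbered replicates were not paired: deviations of the 52 same-numbered pairs correlated from -0.575 to 0.661 (15 over 0.1), and 9 of 19 libraries correlated best with their own number. The replicate block moved counts of calls by over 1.5 times only from 6.5 to 10.5 dpp, where the member it called was F13a1. The cause of the changes was not tested. Depth limits the genes at a few counts per library, for which a missed call does not show equal levels.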
